A study of Mus musculus with 12 samples.

Results

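Interferon-stimulated genes are the genes a cell switches on after an interferon binds its receptor, and 50 of them were followed here in CD11b+ cells from the cortex of mice with and without an App knock-in. The 50 were taken from a fixed list of symbols without a cutoff on a measured value, but the list was chosen with earlier results of these data known. They were looked up by Ensembl identifier among the 55487 genes of the count table. All 50 passed the filter on low counts, which left 15425 genes. There were 4 groups of 3 mice, 1 library per mouse. WT mice given PBS as vehicle are called WT veh, WT mice given rh Bri2 BRICHOS R221E are called WT BRICHOS, and the corresponding groups of App NL-G-F mice are called App veh and App BRICHOS. The mice were males on a C57BL/6J background. The App NL-G-F strain carries a knock-in of the Swedish, Iberian and Arctic mutations in the endogenous App gene, so no transgene promoter is involved, and the WT mice lack these mutations. Rh Bri2 BRICHOS R221E is a recombinant human form of the BRICHOS domain of Bri2, a molecular chaperone, with the R221E substitution that keeps it monomeric. All 4 groups received intravenous injections, 24 over 12 weeks from 9 months of age, at 10 mg/kg for the protein, and were sacrificed 4 weeks after treatment. The cells were taken from papain-digested cortex with CD11b magnetic beads, a selection that also keeps other CD11b+ cells and carry-over from the tissue.

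Interferons are secreted proteins, and those of type I are made when a cell senses foreign or misplaced nucleic acid. Type I interferons bind a receptor of the Ifnar1 and Ifnar2 chains and act through a complex that includes STAT2 and IRF9 and binds a promoter element called the ISRE, whereas type II interferon binds Ifngr1 and Ifngr2 and acts mainly at promoter elements called GAS. The genes they induce encode sensors, antiviral enzymes, GTPases that attack pathogen compartments and brakes on the response, and an interferon-responsive state of microglia is known from ageing and from amyloid models.

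The ISRE-like motif was looked for in RefSeq promoter windows because it is the element through which many of these genes are known to respond, and it played no part in listing them. The search used GAAANNGAAA and its reverse complement TTTCNNTTTC, in windows from 250 bases before to 50 bases after each start on GRCm38.p6, and a gene counted when any of its windows held a match. Of the 50 genes, 38 had a window and 24 of these (63.2%) held the motif, against 3.99% of all 27025 genes with a window. The GAS-like motif TTCNNNGAA, which reads the same on both strands, was found in 10 of the 38 (26.3%), against 9.55% of all genes. A match is a match of letters, not a measured binding site.

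The following stretches lie upstream of the start of 6 genes that differed between App veh and WT veh mice, chosen as those with the lowest p-values whose match lay ahead of the annotated gene. They are printed 5′ to 3′ on the strand of the gene, and the capitals mark the motif, with overlapping matches joined. Gbp7, Gbp3 and Stat2 hold the motif as TTTCNNTTTC and the other 3 as GAAANNGAAA. The stretches are from chr3:142530243-142530332 (+) for Gbp7, chr3:142559936-142560025 (+) for Gbp3, chr5:120907526-120907615 (-) for Oas1a, chr8:71537550-71537639 (-) for Bst2, chr1:173741810-173741899 (-) for Ifi207 and chr10:128270248-128270325 (+) for Stat2.
Gbp7: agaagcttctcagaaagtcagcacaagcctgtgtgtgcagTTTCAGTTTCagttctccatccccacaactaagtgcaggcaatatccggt
Oas1a: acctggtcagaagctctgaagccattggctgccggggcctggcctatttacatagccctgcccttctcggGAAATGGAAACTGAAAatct
Bst2: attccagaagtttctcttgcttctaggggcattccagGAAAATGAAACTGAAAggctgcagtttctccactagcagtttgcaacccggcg
Ifi207: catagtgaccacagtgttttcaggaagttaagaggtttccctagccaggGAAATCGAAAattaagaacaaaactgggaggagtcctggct
Gbp3: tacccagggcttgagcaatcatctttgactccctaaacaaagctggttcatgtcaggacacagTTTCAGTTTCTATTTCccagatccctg
Stat2: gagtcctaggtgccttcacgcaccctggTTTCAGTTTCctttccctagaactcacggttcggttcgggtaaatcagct
Gbp7 and Gbp3 were lower in App mice and the other 4 genes were higher, so genes with the motif were found on both sides. In that comparison the motif was present in 9 of the 13 higher genes with a window, in 5 of the 5 lower genes and in 10 of the 20 genes that were not called.

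Microglial markers were abundant in every library. The summed level of 8 of them was between 22555 and 28238 CPM (counts per 1000000 counts of a library, scaled by TMM factors) in libraries of 12433402 to 17889654 counts, and 6 of the 8 were lower and 1 was higher in App veh than in WT veh mice. Astrocyte markers were higher in App veh mice than in WT veh mice in 7 of 7 genes, with a sum of 1386 to 4456 against 418.3 to 593.5 CPM. Their sum was 644.7 to 1864 CPM in App BRICHOS mice, where 1 of 7 was called higher than in WT BRICHOS mice. Border macrophage markers were lower in App mice in 5 of 6 genes under either treatment, with a sum of 134.6 to 188.7 CPM against 315.1 to 506.3 CPM in WT mice. Neutrophil markers were lower in 6 of 6 genes in the veh mice and in 4 of 6 in the BRICHOS mice, with a sum of 12 to 35.3 CPM in the 6 App mice against 34.2 to 426.9 CPM in the 6 WT mice. Monocyte markers had a sum of 10.1 to 25 CPM in App mice and 18.1 to 86.6 CPM in WT mice. Oligodendrocyte markers had the largest sum after microglia in most libraries, at 9595 to 16823 CPM in WT veh, 4130 to 15378 CPM in WT BRICHOS, 3147 to 5557 CPM in App veh and 4437 to 6038 CPM in App BRICHOS mice. The astrocyte sum was larger in App veh mice 1 (4456 against 3147 CPM) and 2 (3989 against 3662 CPM). The choroid plexus sum was larger in WT BRICHOS mouse 3 (6603 against 4130 CPM). Of the oligodendrocyte markers, 2 of 6 were called lower in App mice with veh and 0 with treatment. Endothelial markers were called lower in App mice in 5 of 6 genes under either treatment, and neuronal markers in 4 of 7 with veh and 5 of 7 with treatment. Choroid plexus and ependymal markers were called lower in 4 of 4 and 5 of 5 genes with treatment and in 0 with veh. None of these markers was at 0 throughout a group. B cell markers summed to 352.1 to 470.2 CPM, and 1 of 5 was called lower in App mice with veh and 4 of 5 with treatment. T cell markers summed to at most 8.3 CPM. Beside these marker counts, 20.1% of all genes were called higher and 16.9% lower in App mice with veh, and 20.8% and 21.8% with treatment. The part of these cell types in the values below was not tested, and in bulk RNA a smaller number of cells of a type and less RNA per cell cannot be told apart. The mutations cannot be read from a count per gene, so App itself is no check of the genotype. Its log2 fold change between App veh and WT veh mice was -0.34 with an adjusted p of 0.12.

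The levels of the 50 genes differed widely from each other. Per kilobase of exon, Ly6e, a GPI-anchored protein that affects virus entry, was the highest in every group, at a mean of 217.1 CPM per kilobase in WT veh mice and 263.9 in App veh mice. Bst2 (tetherin, which holds budding viruses at the cell surface) followed in WT veh mice at 67.3, then Ifitm3 at 52.7 and the transcription factor Irf1 at 46.5 CPM per kilobase. At the other end stood Oas3 at 0.381 and Ifi44 at 0.366 CPM per kilobase, values closer to each other than the spread between mice. In App veh mice, Ifi27l2a, a small protein of the ISG12 family, moved up from the eighth place to the fourth at 65.3 CPM per kilobase.

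In veh mice, 25 of the 50 genes (50%) differed between App and WT mice at an adjusted p under 0.05 (edgeR quasi-likelihood test, Benjamini-Hochberg adjustment over 15425 genes), 19 of them higher and 6 lower in App mice. Of all genes tested, 37% passed, 20.1% as higher and 16.9% as lower, so the share of higher genes was 38% against 20.1% and the share of lower genes was 12% against 16.9%. The log2 fold change was above 0 for 39 of 50 genes, against 47.9% of all genes, and its median was 0.28 against -0.02. Groups of 3 did not overlap for 32 genes (64%), 25 higher and 7 lower, against 50.9% of all genes (25.5% higher and 25.3% lower). The difference exceeded 2-fold for 7 of the called genes and stayed under 1.5-fold for 10.

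Scaling bears on this split. With library totals in place of TMM factors, an alternative chosen after seeing the data, the median of all genes moved by -0.19 and the called genes were 10 higher and 8 lower. The share of higher calls then was 55.6% in place of 76%. Under both scalings 39 genes lay above the median of all genes. A change of scaling moves all genes nearly alike, so that count could not show its effect. The calls lost were those of Ifih1, Dhx58, Stat2, Isg15, Herc6, Ifit3b, Ly6e, Trim30a and Sp100.

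**Figure D1:**
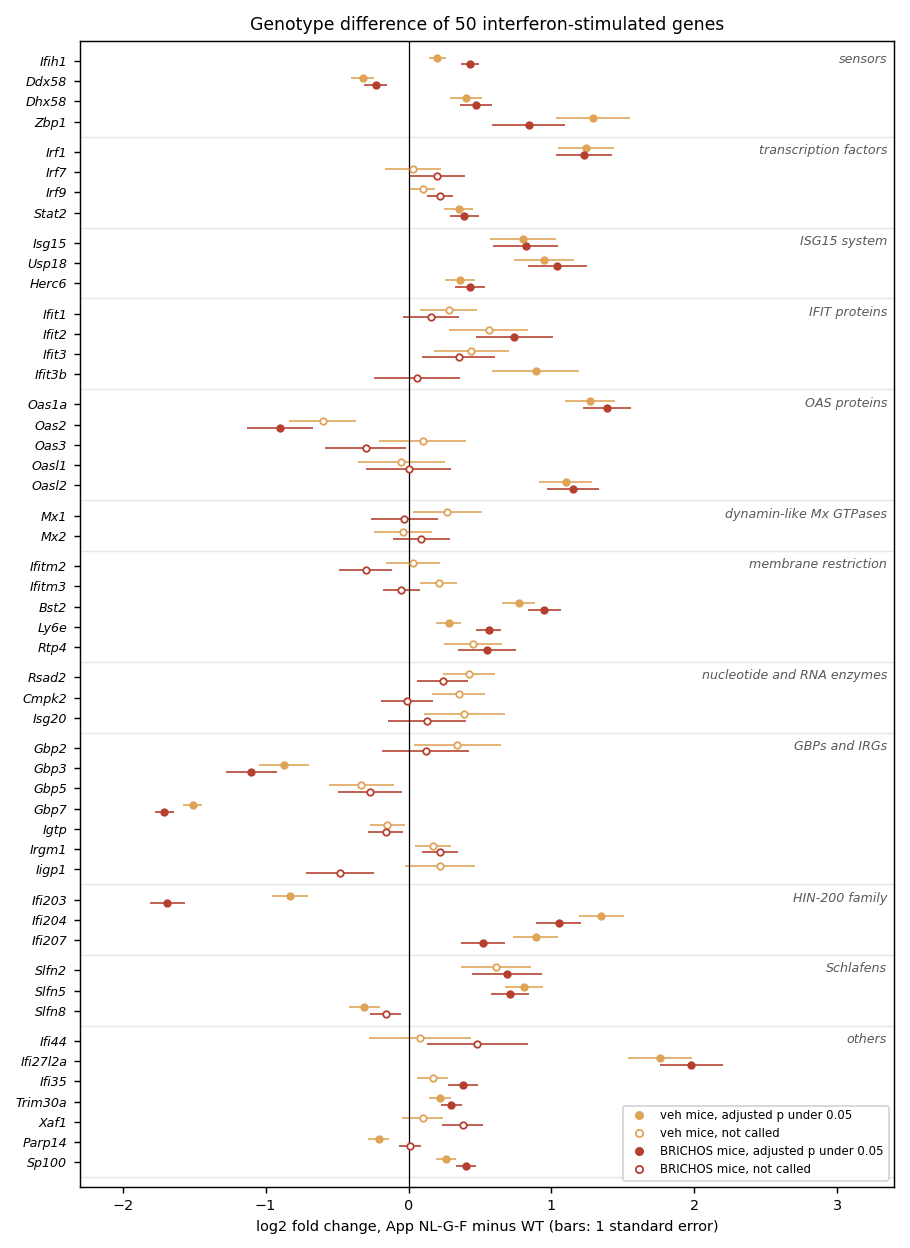
Log2 fold change of 50 interferon-stimulated genes between App and WT mice (x axis), arranged by role, for veh mice (orange) and BRICHOS mice (red). Bars are 1 standard error, filled points have an adjusted p under 0.05, and most filled points lie right of 0, with Gbp7, Gbp3, Ifi203 and Ddx58 to the left under both treatments.

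Among the nucleic acid sensors, all 4 genes changed. Zbp1, a sensor of Z-form nucleic acid, was at 6.5, 5.04 and 4.32 CPM in WT veh mice and at 14.8, 11.4 and 12.6 CPM in App veh mice, a log2 fold change of 1.29 ± 0.261 (SE, adjusted p = 0.00254). Ifih1 (MDA5, a sensor of long double-stranded RNA) rose from 43.4, 42.3 and 43.1 to 49.4, 49.1 and 49.1 CPM, by 0.20 ± 0.0598 on the log2 scale (adjusted p = 0.023). Ddx58 (RIG-I, a sensor of RNA with a 5′ triphosphate) moved the other way, from 44.9, 43.5 and 46.6 to 39.6, 33.7 and 34.6 CPM, a change of -0.32 ± 0.0805 (adjusted p = 0.00821). None of these 3 genes overlapped between the groups. Dhx58 (LGP2), which modulates both RNA sensors, rose by 0.40 ± 0.113.

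Of the transcription factors, Irf1 and Stat2 rose and Irf7 and Irf9 were not called. Irf1, a factor induced by both types of interferon and by NF-kB, was at 177.9, 203.4 and 173.8 CPM in WT veh mice and at 373.1, 455.2 and 486.0 CPM in App veh mice. Every App mouse was above every WT mouse, and the log2 fold change was 1.24 ± 0.197 (adjusted p = 0.000478). Immediate early genes, which respond to tissue dissociation, were higher in 4 and lower in 1 of 8 in the same comparison, and their summed level was 11229 to 15297 CPM in App veh mice against 10742 to 14544 CPM in WT veh mice. Stat2, a subunit of the complex that binds the ISRE, rose by 0.35 ± 0.0999. Irf7, the amplifier of type I interferon production, ranged from 15.6 to 22.5 CPM in WT veh mice and from 16.5 to 22.9 CPM in App veh mice, a log2 fold change of 0.03 ± 0.196.

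All 3 genes of the ISG15 system rose. Isg15, a ubiquitin-like modifier, was at 8.97, 6.52 and 7.38 CPM in WT veh mice and at 16.4, 13.5 and 9.71 CPM in App veh mice (log2 fold change 0.80 ± 0.231, adjusted p = 0.0184). Usp18, the protease that removes ISG15 and also damps the type I receptor, was at 8.42, 6.05 and 8.64 against 18.6, 12.1 and 13.8 CPM (0.95 ± 0.21, adjusted p = 0.00432). The lowest App mouse lay above the highest WT mouse for both genes, by a narrow margin for Isg15. Herc6, the mouse ligase that attaches ISG15, rose by 0.36 ± 0.102.

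The IFIT and OAS families were divided. Of the 4 IFIT genes, which encode proteins that bind foreign RNA ends, Ifit3b alone was called, at 2.88, 3.91 and 3.65 against 8.68, 5.78 and 4.96 CPM (0.89 ± 0.305, adjusted p = 0.0386). Its near-identical neighbour Ifit3, with which it can share reads, had a log2 fold change of 0.44 ± 0.26 (adjusted p = 0.211). Ifit2 and Ifit1 were at 0.56 ± 0.276 and 0.28 ± 0.197.

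The OAS enzymes make 2-5A when bound to double-stranded RNA, and 2-5A activates RNase L. Oas1a was at 8.01, 7.29 and 7.3 CPM in WT veh mice and at 22, 14.7 and 18 CPM in App veh mice (1.27 ± 0.172, adjusted p = 0.000142). Oasl2, an OAS-like protein with a ubiquitin-like tail, was at 22.8, 17.3 and 17.4 against 46.3, 34.8 and 41.8 CPM (1.10 ± 0.184, adjusted p = 0.000721). Both were higher in each App mouse than in any WT mouse. Oas2 pointed the other way without passing the test, at 14, 6.46 and 9.02 against 6.86, 5.45 and 7.04 CPM (-0.60 ± 0.234, adjusted p = 0.0631). Its value was -0.26 without WT veh mouse 1 and -0.84 without WT veh mouse 2, and it was called without mouse 2, with no filter and with library totals. Oas3 and Oasl1 had log2 fold changes of 0.10 ± 0.304 and -0.05 ± 0.305. Neither of the Mx genes, which encode dynamin-like GTPases against viral nucleocapsids, was called (0.27 ± 0.241 for Mx1 and -0.04 ± 0.204 for Mx2, which is annotated as a polymorphic pseudogene).

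Of the 5 membrane restriction factors, Bst2 and Ly6e rose. Bst2 was at 61.1, 56.9 and 64.3 CPM in WT veh mice and at 109.2, 91.8 and 110.3 CPM in App veh mice (0.77 ± 0.115, adjusted p = 0.000302). Ly6e was at 805.5, 818.0 and 840.7 against 1031, 883.5 and 1081 CPM (0.28 ± 0.0895, adjusted p = 0.0282). The groups did not overlap for either gene. Ifitm2 and Ifitm3, which block fusion of viral and endosomal membranes, had log2 fold changes of 0.03 ± 0.19 and 0.21 ± 0.129, and Rtp4 was at 0.45 ± 0.204 (adjusted p = 0.106). None of the 3 nucleotide and RNA enzymes passed, with Rsad2 (viperin), the nucleotide kinase Cmpk2 and the exonuclease Isg20 at 0.42 ± 0.182, 0.35 ± 0.185 and 0.39 ± 0.283.

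The guanylate-binding proteins and immunity-related GTPases, which assemble on pathogen vacuoles and are strongly induced by interferon-gamma, had no higher call and 2 lower calls among 7 genes. Gbp7 (chr3:142530342-142550149, GRCm38) had the lowest p of the 50 genes. It was at 57.7, 57.8 and 61.4 CPM in WT veh mice and at 21.4, 20.6 and 19.9 CPM in App veh mice. The mice within each group lay close together and the groups far apart, with a log2 fold change of -1.51 ± 0.067 (adjusted p = 2.21e-08). Gbp3 was at 26.8, 32 and 28.8 against 16.9, 15.1 and 16 CPM (-0.87 ± 0.175, adjusted p = 0.0024). Gbp2 and Gbp5 of the same cluster on chromosome 3 were not called (0.34 ± 0.304 and -0.33 ± 0.227), nor were Igtp, Irgm1 and Iigp1 (-0.15 ± 0.122, 0.17 ± 0.127 and 0.22 ± 0.244). Exons of Igtp overlap those of Irgm2 on the same strand, and Irgm2, which is not among the 50 genes, was lower at -0.76 ± 0.154 (adjusted p = 0.00255).

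The HIN-200 genes, which lie side by side on chromosome 1 and encode DNA-binding proteins related to the DNA sensors of the cytosol and nucleus, changed in both directions. Ifi204 (chr1:173747293-173766943) was at 19.3, 16.9 and 19.6 CPM in WT veh mice and at 56, 42.4 and 43.9 CPM in App veh mice (1.35 ± 0.16, adjusted p = 5.25e-05). Ifi207 (chr1:173723427-173741747) was at 24, 21.4 and 27.1 against 47.3, 40 and 46.5 CPM (0.89 ± 0.158, adjusted p = 0.00106). Ifi203 (chr1:173920407-173942672) was at 11.9, 11.4 and 11.6 against 5.89, 5.97 and 7.85 CPM (-0.83 ± 0.124, adjusted p = 0.000328). None of the 3 overlapped between the groups, and Ifi203 fell where Ifi204 and Ifi207 rose. Mndal, a gene of the same cluster whose exons overlap those of Ifi203, was lower too, at -0.79 ± 0.219 (adjusted p = 0.0151). These genes are paralogs whose reads counting could split in unknown ways.

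Among the remaining genes, Ifi27l2a rose the most of the 50. It was at 10.8, 6.7 and 9.46 CPM in WT veh mice and at 41.3, 23.4 and 26 CPM in App veh mice (1.76 ± 0.223, adjusted p = 9.13e-05). Of the Schlafens, which restrict growth and viral translation, Slfn5 rose from 32.9, 35.5 and 30.3 to 66.2, 49.5 and 57.8 CPM (0.81 ± 0.134, adjusted p = 0.00064). Slfn8 fell from 68.5, 63.8 and 62.7 to 62, 44.4 and 50.2 CPM (-0.31 ± 0.108, adjusted p = 0.0387). For each of these genes the groups were apart, Slfn8 by less than 1 CPM. Parp14, a mono-ADP-ribosyltransferase, was lower at -0.21 ± 0.0753 (adjusted p = 0.0454), and the TRIM family gene Trim30a and the nuclear body gene Sp100 were higher at 0.22 ± 0.0749 and 0.26 ± 0.0702. Slfn2 was at 0.61 ± 0.244 (adjusted p = 0.0721), and Ifi44, Ifi35 and Xaf1 at 0.08 ± 0.359, 0.17 ± 0.108 and 0.10 ± 0.144.

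**Figure D2:**
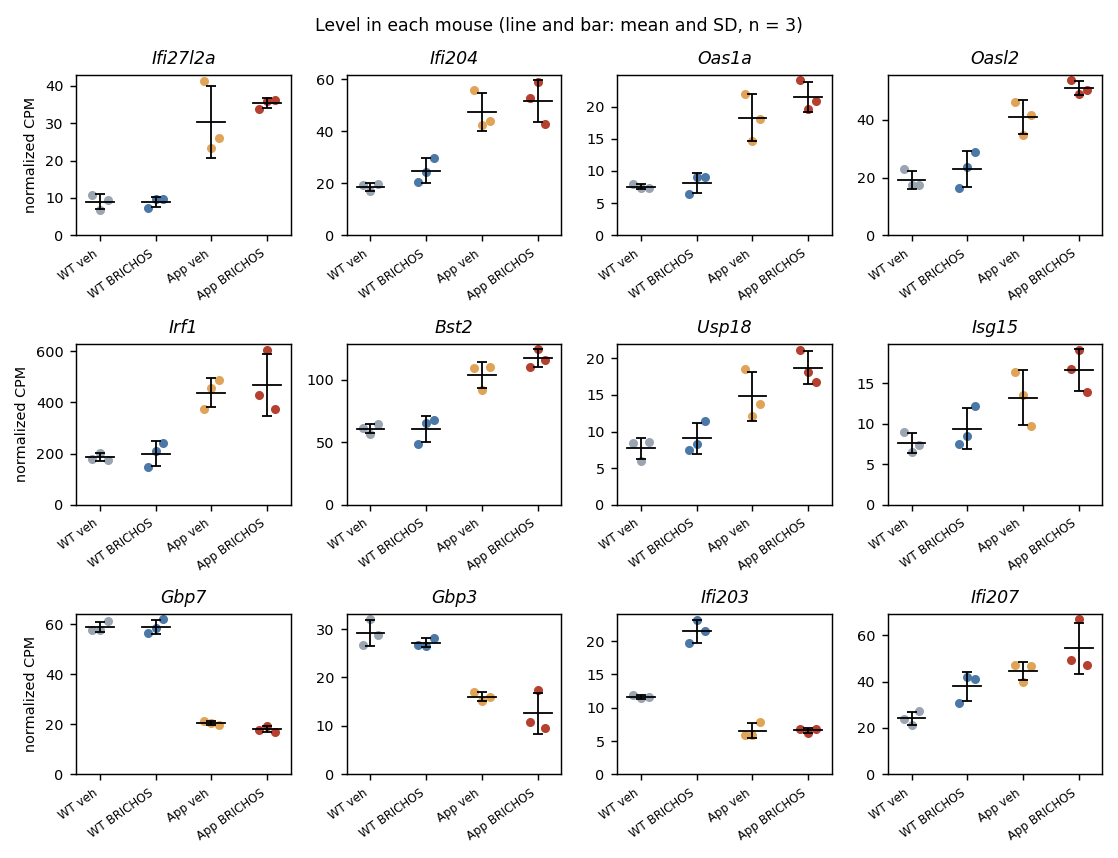
TMM-scaled CPM of 12 of the genes in each mouse (points) by group, with the mean (line) and SD (bar) of 3 mice. Gbp7, Gbp3 and Ifi203 are lower in the App mice and the other 9 are higher in them, and Ifi203 in WT BRICHOS mice stands above all other groups at 19.7 to 23.2 CPM.

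The genotype comparison was also made between the mice given rh Bri2 BRICHOS R221E, whose group means rest on other libraries than those of the veh mice, while the spread was estimated over all 12 libraries in both. There 27 of 50 genes (54%) passed, 22 higher and 5 lower in App mice, against 42.5% of all genes, 20.8% higher and 21.8% lower. Of the 25 genes called in veh mice, 22 (88%) were called again in the same direction, which is 81.5% of the 27, and 0 were called in the opposite direction. Over all genes, the calls shared in the same direction were 72% of those in veh mice and 62.7% of those in BRICHOS mice. The log2 fold change was above 0 for 36 of 50 genes, against 46.1% of all genes, and had the same sign as in veh mice for 41. With library totals in place of TMM factors the called genes were 9 higher and 11 lower, the median of all genes having moved by -0.27. Under either scaling 38 genes lay above that median, which is no test of the scaling, since it moves all genes nearly alike.

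The genes with the lowest p-values in BRICHOS mice were Gbp7, Ifi203, Ifi27l2a and Bst2. Gbp7 was at 56.5, 58.6 and 62.1 CPM in WT BRICHOS mice and at 17.8, 19.4 and 17 CPM in App BRICHOS mice (-1.71 ± 0.0675, adjusted p = 8.3e-09). Ifi203 was at 19.7, 23.2 and 21.6 against 6.84, 6.21 and 6.87 CPM (-1.69 ± 0.123, adjusted p = 9.69e-07). Both were lower in every App mouse. Ifi27l2a was at 7.31, 9.8 and 9.67 against 33.8, 36 and 36.2 CPM (1.98 ± 0.222, adjusted p = 3.07e-05). Bst2 was at 48.8, 65.1 and 67.7 against 110.3, 124.6 and 116.0 CPM (0.95 ± 0.115, adjusted p = 5.61e-05). Oas1a was at 6.36, 9.07 and 9.1 against 24.1, 19.6 and 20.8 CPM (1.39 ± 0.169, adjusted p = 5.81e-05). These 3 genes of different roles were higher in every App mouse. The 18 genes called as higher under both treatments included Ifih1, Dhx58, Zbp1, Irf1, Stat2, all 3 genes of the ISG15 system, Oasl2, Ly6e, Ifi204, Ifi207, Slfn5, Trim30a and Sp100, and the 4 lower genes were Ddx58, Gbp3, Gbp7 and Ifi203.

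In 8 genes the call differed between the treatments, and the test of the difference was not passed for any of them. Ifit3b, Slfn8 and Parp14 were called in veh mice only. Ifit3b was at 3.15, 3.49 and 6.41 CPM in WT BRICHOS mice and at 5.75, 4.03 and 3.85 CPM in App BRICHOS mice, a log2 fold change of 0.06 ± 0.303, and the difference from the veh mice was -0.83 ± 0.43 (adjusted p = 0.39). The groups overlapped. Slfn8 was at 61.2, 65.8 and 70.9 against 63.8, 57.5 and 56.3 CPM (-0.16 ± 0.107), and Parp14, at 115.9, 113.6 and 109.6 against 101.6, 89 and 102.3 CPM with veh, was at 92.5, 105.5 and 112.4 against 100.3, 105.0 and 108.2 CPM with treatment (0.01 ± 0.0752).

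Ifit2, Oas2, Rtp4, Slfn2 and Ifi35 were called in BRICHOS mice only. Oas2 was at 11.8, 14.5 and 14.5 CPM in WT BRICHOS mice and at 7.49, 7.36 and 6.95 CPM in App BRICHOS mice (-0.90 ± 0.229, adjusted p = 0.00806), with no overlap. Ifi35, a leucine zipper protein, was at 22.6, 28.9 and 28 against 33.8, 37.7 and 31.8 CPM (0.38 ± 0.107, adjusted p = 0.0147), and at 27.3, 28.3 and 29.7 against 34.1, 28.2 and 33.6 CPM with veh. Its groups were apart with treatment and overlapped with veh. Ifit2 was at 15.6, 16.7 and 34.3 against 47.5, 34 and 29.7 CPM (0.74 ± 0.271, adjusted p = 0.0457), after 21.1, 17.4 and 17.4 against 31.8, 25.6 and 25.1 CPM with veh. Rtp4 was at 10.1, 11.8 and 16.3 against 19.9, 19.4 and 16.6 CPM (0.55 ± 0.201, adjusted p = 0.0452), after 13.1, 9.67 and 11.4 against 19.5, 12.2 and 15 CPM with veh. Slfn2 was at 36.1, 50.1 and 65.2 against 64.4, 114.7 and 65.5 CPM (0.69 ± 0.243, adjusted p = 0.0384), after 54.2, 52 and 43.6 against 74.2, 88.2 and 65.4 CPM with veh. The BRICHOS groups of Ifit2 and Slfn2 overlapped, in both cases through WT mouse 3.

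The 20 genes called under neither treatment were Irf7, Irf9, Ifit1, Ifit3, Oas3, Oasl1, Mx1, Mx2, Ifitm2, Ifitm3, Rsad2, Cmpk2, Isg20, Gbp2, Gbp5, Igtp, Irgm1, Iigp1, Ifi44 and Xaf1. Several of these, such as Irf7, Ifit1, Ifit3, Mx1, Rsad2 and Cmpk2, are among the most responsive genes to type I interferon in general. A p that misses the threshold does not show that they were equal, and standard errors in this group ran up to 0.359 for Ifi44.

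Libraries of a group differed in a direction shared by many of the genes. In WT BRICHOS mice, mouse 3 was the highest of its group for 41 of 50 genes (82%), against 42.4% of all genes, and mouse 1 was the lowest for 41, against 44% of all genes. Mean log2 CPM over the 50 genes was 4.20, 4.42 and 4.68 in WT BRICHOS mice 1, 2 and 3. In the same mice the neutrophil sum was 67.1, 248.1 and 396.9 CPM, the monocyte sum was 32.5, 61.2 and 86.6 CPM, and the choroid plexus sum was 3157, 3894 and 6603 CPM. Of the 15 cell type lists, 6 had their lowest sum in mouse 1 and their highest in mouse 3, the others of these being microglia, neurons and ependymal cells, and the oligodendrocyte sum ran the opposite way, at 15378, 6715 and 4130 CPM. The part of these cells in the values was not tested. Among App veh mice, mouse 1 was the highest for 37 genes (74%), against 31.9% of all genes, and mouse 2 the lowest for 37, with means of 4.73, 4.43 and 4.54. The mean ran from 4.22 to 4.35 in WT veh mice and from 4.54 to 4.77 in App BRICHOS mice. On this scale every App mouse lay above every WT veh mouse, and WT BRICHOS mouse 3 lay within the range of App mice. The scale rests on TMM factors, which were 1.045 to 1.104 in WT and 0.8744 to 0.9525 in App libraries. The order of the mice with library totals was not tested.

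**Figure D3:**
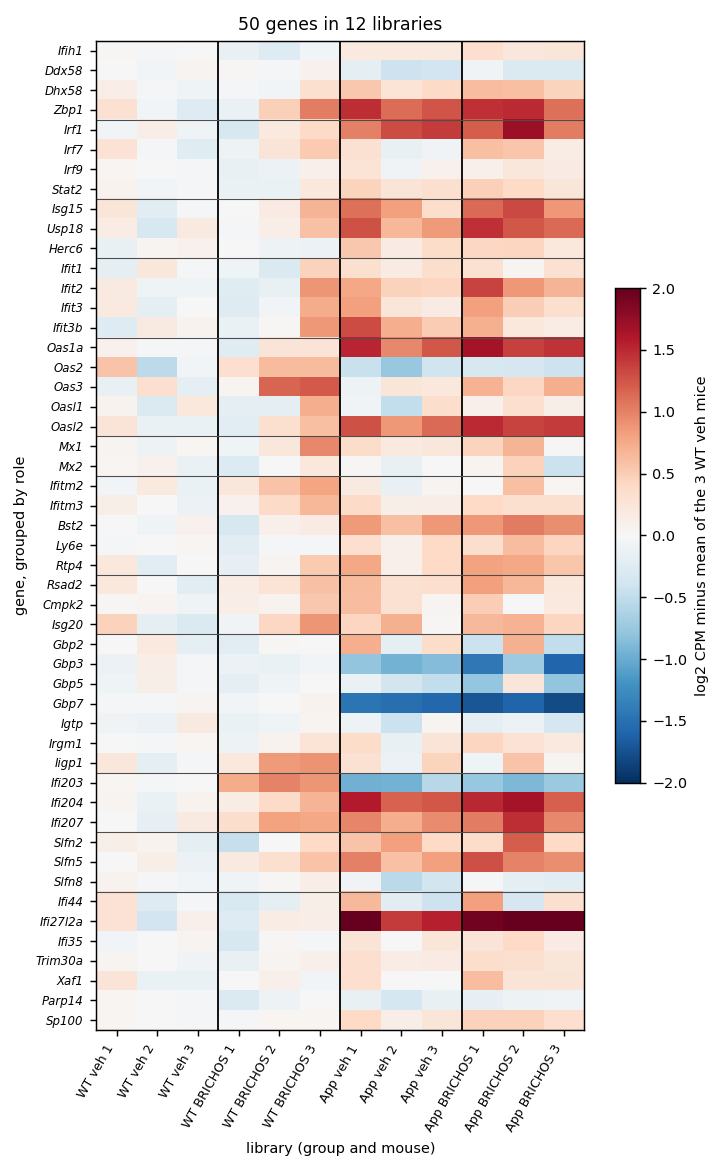
Log2 CPM of 50 interferon-stimulated genes (rows, by role) in 12 libraries (columns), as the difference from the mean of the 3 WT veh mice, with red for higher, blue for lower and the scale ending at 2 either way. WT BRICHOS mouse 3 and App veh mouse 1 are redder than the other mice of their groups, and Gbp7 and Ifi203 are blue in all 6 App mice.

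These libraries bear on the counts. Without App veh mouse 1, or without WT veh mouse 3, 16 genes were called between App veh and WT veh mice. With each of the 12 libraries left out in turn that count ran from 16 to 27. Higher calls then numbered 11 without App veh mouse 1 and 12 without WT veh mouse 2 or 3. In the BRICHOS mice, 23 to 29 genes were called with any 1 library left out. Under 19 alternatives, which include library totals and leave out the cutoff on fold change, 14 of the 25 calls in veh mice stood, namely Ddx58, Zbp1, Irf1, Usp18, Oas1a, Oasl2, Bst2, Gbp3, Gbp7, Ifi203, Ifi204, Ifi207, Slfn5 and Ifi27l2a. A cutoff of 1 on the absolute log2 fold change left 7 of these 14, namely Zbp1, Irf1, Oas1a, Oasl2, Gbp7, Ifi204 and Ifi27l2a. The other 11 (Ifih1, Dhx58, Stat2, Isg15, Herc6, Ifit3b, Ly6e, Slfn8, Trim30a, Parp14 and Sp100) each lost their call with at least 1 library left out. Without WT veh mouse 2 or 3, those lost were Ifih1, Dhx58, Stat2, Isg15, Ifit3b, Ly6e, Slfn8, Trim30a and Parp14. Without App veh mouse 1, those lost were Dhx58, Stat2, Isg15, Herc6, Ifit3b, Ly6e, Trim30a, Parp14 and Sp100. In BRICHOS mice 13 of the 27 calls stood under the same 19 alternatives, and the cutoff left 9 of them. Ddx58, Zbp1, Ifit2, Rtp4, Ifi207, Slfn2 and Ifi35 lost theirs with at least 1 library left out, all of them without App BRICHOS mouse 2 and 5 of them (Ddx58, Ifit2, Rtp4, Ifi207 and Slfn2) also without WT BRICHOS mouse 1. Ifih1, Dhx58, Stat2, Isg15, Herc6, Trim30a and Sp100 lost theirs with library totals alone. Without App BRICHOS mouse 2 the log2 fold change was 0.37 for Slfn2 and 0.34 for Ifi207, in place of 0.69 and 0.52, and without WT BRICHOS mouse 3 that of Ifit2 was 1.20 in place of 0.74.

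Rh Bri2 BRICHOS R221E was compared with veh in App mice to ask whether the treatment altered these genes in the disease model. None of the 50 genes was called with edgeR, against 0.00648% of all genes, and DESeq2's Wald test called 0 as well. At an unadjusted p under 0.05, 2 genes (4%) passed, 1 higher and 1 lower, against 10.8% of all genes (3.18% higher and 7.67% lower). The lowest p was 0.0169, for Gbp7, which had been the most lowered gene of the genotype comparison. It was at 21.4, 20.6 and 19.9 CPM with veh and at 17.8, 19.4 and 17 CPM with treatment (-0.19 ± 0.0684, adjusted p = 0.352). The groups were just apart. Sp100 was at 55.4, 45.9 and 50 with veh and at 57.8, 58 and 53.4 CPM with treatment, overlapping (0.16 ± 0.0698, adjusted p = 0.428).

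The fitted change was above 0 for 40 of 50 genes, against 52% of all genes, with a median of 0.13 against 0.01. Only 5 genes (10%) did not overlap between the groups, 4 higher and 1 lower, against 13.5% of all genes (6.37% higher and 7.09% lower). The next lowest p-values were those of Ly6e, at 1031, 883.5 and 1081 with veh and 1053, 1260 and 1110 CPM with treatment (0.19 ± 0.0894, adjusted p = 0.473), and of Irf7, at 22.9, 16.5 and 17.6 with veh and 28, 27.1 and 20.5 CPM with treatment (0.41 ± 0.194, adjusted p = 0.485). Both overlapped. Without App veh mouse 1, which held the highest levels of its group, 12 genes passed at an unadjusted p under 0.05 and 0 after adjustment. The share of all genes that passed in that fit is not given here. This comparison shares the App veh mice with the genotype comparison above. Astrocyte markers were lower with treatment in 7 of 7 genes at an unadjusted p under 0.05 and in 0 of 7 after adjustment.

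In WT mice none of the 50 genes was called with edgeR, against 0% of all genes with the same test. DESeq2's Wald test called 2, Ifi203 and Ifi207, and its share over all genes is not given here. At an unadjusted p under 0.05, 9 genes (18%) passed, 8 higher and 1 lower with treatment, against 11.4% of all genes (6.55% higher and 4.83% lower). Groups did not overlap for 7 genes (14%), 6 higher and 1 lower, against 17.5% of all genes (8.36% higher and 9.19% lower). The count at an unadjusted p was 5 without WT BRICHOS mouse 3 and 14 without WT BRICHOS mouse 1, and the shares of all genes in these fits are not given here. Beside these values, 4 of 6 border macrophage, 3 of 5 monocyte, 2 of 4 choroid plexus and 4 of 5 ependymal markers were higher at an unadjusted p under 0.05. So were 3 of 4 tested NK cell, 1 of 1 tested T cell, 2 of 5 B cell and 2 of 6 mural markers, and 1 of 8 microglial markers was lower. Of all genes, 6.55% were higher at that threshold. None of these markers passed after adjustment, and their part in the result was not tested.

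Ifi203 had the lowest p of the comparison. It was at 11.9, 11.4 and 11.6 CPM in WT veh mice and at 19.7, 23.2 and 21.6 CPM in WT BRICHOS mice. The groups did not overlap, and the log2 fold change was 0.88 ± 0.119 (adjusted p = 0.0791 with edgeR). Exons of Ifi203 overlap on the same strand with those of Mndal, another HIN-200 gene that is not among the 50. Mndal was at 7.12, 5.22 and 5.29 CPM in WT veh mice, at 9.2, 12.7 and 10.1 CPM in WT BRICHOS mice, at 4.14, 3.15 and 2.89 CPM in App veh mice and at 3.87, 2.56 and 3.63 CPM in App BRICHOS mice. In both genes the WT BRICHOS mice were the highest group and the App groups the lowest. The log2 fold change of Mndal was 0.86 ± 0.207 with treatment in WT mice (adjusted p = 0.239). How reads over the shared exons were assigned is not given in the sources used here, so the values of this pair may not be independent.

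Ifi207 was at 24, 21.4 and 27.1 CPM with veh and at 30.8, 42 and 41.2 CPM with treatment (0.66 ± 0.157, adjusted p = 0.239), and Ifi204 at 19.3, 16.9 and 19.6 against 20.5, 24.3 and 29.8 CPM (0.42 ± 0.161, adjusted p = 0.365). Both were higher in every WT BRICHOS mouse. Oas3 was at 2.4, 3.38 and 2.31 against 2.77, 6.08 and 6.41 CPM (0.91 ± 0.293, adjusted p = 0.286), and Ifitm3 at 38.5, 35.8 and 32.8 against 37.7, 46.5 and 56.6 CPM (0.39 ± 0.128, adjusted p = 0.292). In these genes BRICHOS mouse 1 lay within the veh range and mice 2 and 3 above it. Iigp1, Ifitm2 and Slfn5 had log2 fold changes of 0.69 ± 0.24, 0.55 ± 0.187 and 0.37 ± 0.134, and Ifih1, the lower gene, was at -0.15 ± 0.0599, and these 4 also passed at an unadjusted p under 0.05 and not after adjustment.

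**Figure D4:**
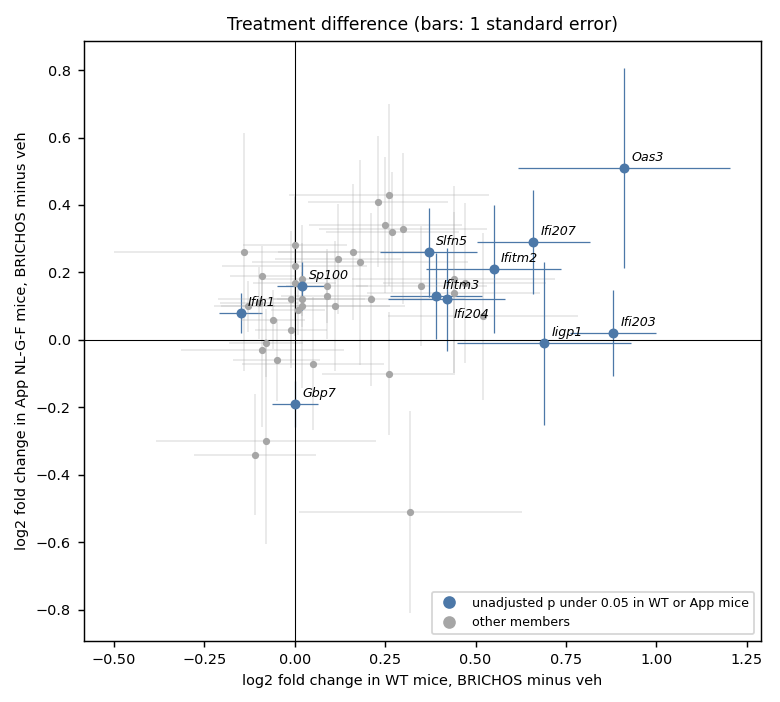
Log2 fold change of the 50 genes between BRICHOS and veh mice, in WT mice (x axis) and in App mice (y axis), with bars of 1 standard error. The genes in blue passed an unadjusted p under 0.05 in either strain, and Ifi203 lies at 0.88 in WT and 0.02 in App mice.

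Whether the treatment acted differently in the 2 strains was tested as the difference of both treatment effects. None of the 50 genes was called with edgeR, against 0.00648% of all genes with the same test. DESeq2's Wald test called 1, Ifi203, and its share over all genes is not given here. At an unadjusted p under 0.05, 3 genes (6%) passed, 2 with a higher and 1 with a lower change in App mice, against 14.8% of all genes (5.23% higher and 9.54% lower). For Ifi203 the difference was -0.87 ± 0.174 (adjusted p = 0.153), the App BRICHOS mice being at 6.84, 6.21 and 6.87 CPM against 5.89, 5.97 and 7.85 CPM with veh. Treatment and veh overlapped in App mice and lay apart in WT mice. Ifih1 was at 43.4, 42.3 and 43.1 CPM with veh and 38.7, 35.9 and 41.2 CPM with treatment in WT mice, and at 49.4, 49.1 and 49.1 against 54.5, 50.3 and 50.8 CPM in App mice, and the difference was 0.23 ± 0.0844 (adjusted p = 0.253). BRICHOS mice lay below veh mice in WT and above them in App mice. Ly6e was at 704.7, 809.5 and 801.2 CPM in WT BRICHOS mice, and its difference was 0.28 ± 0.126 (adjusted p = 0.332).

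The upstream part of the pathway was read from a list of ligands, receptors, inducers and brakes. Of 9 interferon ligands only Ifnb1 passed the filter. It was at 1.23, 0.89 and 1.19 CPM in WT veh mice, 0.378, 0.563 and 0.687 CPM in WT BRICHOS mice, 0.777, 0.853 and 1.26 CPM in App veh mice and 0.839, 1.92 and 0.453 CPM in App BRICHOS mice, and it was not called in any comparison. No read was counted for Ifna1, Ifna2, Ifna4 or Ifna5. The limit that a count of 0 allows, 3 counts, corresponds to 0.168 to 0.241 CPM when taken over library totals, without TMM factors. Ifng was at most 0.296 CPM.

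Of the 5 receptor genes tested, 3 changed with genotype under both treatments, beside 37% of all genes with veh and 42.5% with treatment. Ifnar2 was at 110.6, 120.5 and 120.3 CPM in WT veh mice and at 147.6, 143.7 and 165.9 CPM in App veh mice (0.38 ± 0.0673, adjusted p = 0.00104). Ifngr1, the ligand-binding chain for interferon-gamma, fell from 411.7, 478.3 and 467.4 to 293.6, 282.2 and 296.5 CPM (-0.64 ± 0.0628, adjusted p = 1.2e-05), whereas its partner Ifngr2 rose by 0.24 ± 0.0762 (adjusted p = 0.0271). Ifngr1 and Ifnar2 did not overlap between these groups. In BRICHOS mice the log2 fold changes were 0.66 ± 0.0673, -0.44 ± 0.0627 and 0.50 ± 0.0762 for Ifnar2, Ifngr1 and Ifngr2. Ifnar1 and Il10rb were not called.

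Of 13 inducers of interferon, 2 were higher and 5 lower in veh mice, and 4 were higher and 3 lower in BRICHOS mice, beside 20.1% higher and 16.9% lower of all genes with veh and 20.8% and 21.8% with treatment. Tmem173 (STING, the adaptor of cytosolic DNA sensing) fell from 275.1, 298.0 and 299.6 to 160.1, 152.7 and 182.3 CPM (-0.82 ± 0.0685, adjusted p = 3.37e-06), and Tlr3 and Tlr9, endosomal sensors of RNA and DNA, were each at -0.49. Ikbke, a kinase that activates IRF factors, was at 1.64, 0.83 and 1.12 against 8.03, 8.2 and 6.08 CPM (2.64 ± 0.332, adjusted p = 8.5e-05), and Irf8, a myeloid transcription factor, rose by 0.50 ± 0.0701. Of 10 brakes tested, 4 were higher and 2 lower in veh mice, among them Adar, which edits double-stranded RNA (0.33 ± 0.0598), Rnaseh2b, a subunit of RNase H2 (0.90 ± 0.112), and Samhd1, a dNTP hydrolase (-0.38 ± 0.0724). Between rh Bri2 BRICHOS R221E and veh, no gene of these lists was called with edgeR. At an unadjusted p under 0.05 there were 3 of the 29 tested genes in App mice and 7 in WT mice, beside 10.8% and 11.4% of all genes.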

How the data were processed

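RNA of CD11b+ cells from the cortex of 12 mice, 3 per group, was sequenced from stranded mRNA libraries. The authors trimmed reads with Cutadapt, aligned them to GRCm38 with STAR and counted them per gene with featureCounts (1.5.1 per the submitters' processing notes), and deposited raw counts without normalization. The strand setting of the counting is not given in the sources used here. Totals were 12433402 to 17889654 counts per library, so 3 counts equal 0.168 to 0.241 CPM without TMM factors, which covers counting error only. Groups were taken from the sample labels. The results of 1 pathway list are not reported here. The 50 genes, the pathway and marker lists and the tests were chosen with earlier results of these data known.

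Genes were filtered with filterByExpr (minimum count 10), scaled by TMM and fitted with edgeR 4.0.16 (R 4.3.3) by quasi-likelihood over all 12 libraries with 1 mean per group, after the tests were tried on simulated data. Adjusted p-values are Benjamini-Hochberg values over 15425 genes, with a threshold of 0.05. Standard errors are the log2 fold change over the square root of F. Fold changes are on the log2 scale, and higher and lower refer to the fit. Alternatives were DESeq2 1.42.0 (its size factors and its Wald test), fits of the compared groups only, other filters, a fold cutoff, a replicate block and leaving out each library. Promoter windows are from RefSeq (GRCm38.p6) and gene coordinates from GENCODE on GRCm38. Values for each mouse are given for the 10 genes with the lowest p in veh-treated mice, the 4 lowest in each other comparison, genes whose call differed between comparisons and some others chosen by role. Figures were drawn with matplotlib 3.10.9.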

Additional observations from a re-analysis of the deposited data

Results flagged for a closer look

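In 3 of the 50 genes the effect of rh Bri2 BRICHOS R221E differed between App and WT mice at an unadjusted p under 0.05 in the edgeR fit, and none of them passed after adjustment. The difference in log2 fold change was -0.87 for Ifi203, 0.23 for Ifih1 and 0.28 for Ly6e. For Ifi203 it came from the WT mice, where the fitted change was 0.88, whereas it was 0.02 in App mice. For Ifih1 the treatment changes were -0.15 in WT and 0.08 in App mice, and for Ly6e they were -0.09 and 0.19.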

How the results depend on the processing

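Single genes were followed for the 72 gene and comparison pairs at an unadjusted p under 0.05. Of their 1365 values under the alternatives, 1224 kept direction and side of the threshold, 115 lost the call, 25 gained it and 1 reversed, that of Irf9 between App BRICHOS and WT BRICHOS mice, at -0.05 with library totals (added after seeing the data). Of the 3335 values of the other 178 pairs, whose changes were nearer 0, 234 had the other sign, in 87 pairs, and 18 gained a call, in 12 pairs. With library totals there were 10 higher calls in veh mice, and 9 higher and 11 lower in BRICHOS mice. A cutoff of 1 on the absolute log2 fold change left 7 calls in veh mice (6 higher, 1 lower) and 9 in BRICHOS mice (6 higher, 3 lower), with 0 for the treatment comparisons and their difference, and 7 and 9 at an unadjusted p in the genotype comparisons. For treatment in App mice, the count at an unadjusted p was 4 with DESeq2's size factors, with its Wald test and with the compared groups only, 6 with no filter and 1 with 10 counts required in every library. For treatment in WT mice, the Wald test called 2 genes (2 higher) and the fit with no filter 1 (1 higher). For the difference of treatment effects the Wald test called 1 (1 lower), and no filter gave 5 at an unadjusted p. The shares of all genes under these alternatives are not given here, and the cause was not tested.

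Leaving out each library in turn gave 16 to 27 calls in veh mice (11 to 20 higher, 4 to 7 lower, 24 to 31 unadjusted) and 23 to 29 in BRICHOS mice (17 to 24 higher, 4 to 7 lower, 26 to 30 unadjusted). It gave 0 calls and 1 to 12 unadjusted for treatment in App mice, 0 to 1 calls (0 to 1 higher) and 5 to 14 unadjusted in WT mice, the 1 call coming without App veh mouse 3, and 0 calls and 2 to 9 unadjusted for the difference. The shares of all genes in these fits are not given here.

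The labels do not say whether equal replicate numbers pair the mice, and the main fit treated the mice as unpaired. Correlations of equally numbered libraries were between -0.0148 and 0.227, and no comparison had all 3 above 0.1. With 3 mice per group these values cannot exclude a batch shared by replicate number. With the replicate block 23 genes were called in veh mice, 27 in BRICHOS mice and 0 in the other comparisons.

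Each group has 3 mice, which limits what can be called for genes near 2 to 5 CPM such as Oas3, Oasl1 and Ifi44. The p-values set a difference of group means against a spread between mice that was estimated over all 12 libraries.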

Other observations

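At an unadjusted p under 0.05 in the edgeR fit, 3 of 5 tested receptor genes had a more positive treatment change in App than in WT mice, Ifnar2 by 0.29 ± 0.0949, Ifngr2 by 0.26 ± 0.108 and Ifngr1 by 0.20 ± 0.0885 on the log2 scale, beside 14.8% of all genes at that threshold (5.23% in that direction), and none passed after adjustment (adjusted p = 0.227, 0.291 and 0.331). The other 2, Ifnar1 and Il10rb, were at -0.01 and 0.21 (edgeR, adjusted p = 0.98 and 0.484).

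Mndal, the gene that shares exons with Ifi203, was lower in App mice by the same measure, at -0.79 ± 0.219 in veh mice (adjusted p = 0.0151) and -1.67 ± 0.216 in BRICHOS mice (adjusted p = 9.18e-05), beside -0.83 ± 0.124 and -1.69 ± 0.123 for Ifi203.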
